A study of Mus musculus with 6 samples.

Results

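The genes described here act in the Golgi apparatus, in the glycosylation of proteins and lipids, and in traffic to the lysosome, in primary CD8+ T cells given daunorubicin (DNR), an anthracycline drug that poisons topoisomerase II. They are Unc50, Sft2d1, Stx16, Slc35a2, Slc35c2, St3gal3, Ggta1, Ap3d1 and Psap, 9 of the 847 genes that could be named in the deposited table. The genes were chosen by name with their differences between DNR and DMSO in these same samples already known. Those differences are therefore given as descriptions, without a test. The rule took every RefSeq transcript of these genes in the table, which gave 16 of its 1037 transcripts, and had no threshold.

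The cells were wildtype CD8+ T cells from mouse spleen, kept in RPMI 1640 medium with serum, and exposed for 2 h to DNR or to its solvent DMSO. Each group has 3 samples, and no dose is stated in the labels. The labels speak of biological replicates and name no separate mice, so the spread is that between these samples. Columns coded D were read as DNR because those coded O match the DMSO descriptions, and every direction rests on that reading. Expression is given as FPKM, fragments per kilobase scaled by library depth, so levels can be compared between genes, and changes are differences on the log2(FPKM + 1) scale (DNR minus DMSO). Between 583 and 594 transcripts of the table were above 0 in each sample, and their FPKM summed to 13501 to 14395. Read totals were not used here, so depth is unknown. Of 15 defining genes of CD8 T cells (Cd3e, Cd8a, Lck and others), 0 were among the matched genes of the table, so the labelled cell type could not be checked. In bulk RNA, fewer cells of a type and less RNA per cell cannot be told apart.

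The Golgi apparatus receives new proteins from the endoplasmic reticulum, builds their glycans with sugars that membrane transporters bring in as activated nucleotide sugars, and sends them on in coated vesicles. Retrograde carriers return membrane and receptors from endosomes to the Golgi, and SNARE proteins fuse these carriers with their target. Adaptor complexes sort other cargo to lysosomes, where hydrolases and their cofactors break down lipids and proteins. In CD8+ T cells, lysosome-related granules hold the killing machinery, and the sialic acid and galactose caps of surface glycans vary with the state of the cell.

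The sequence before an annotated start is shown for Psap, Ap3d1 and Unc50, the 3 of the 9 genes with the highest DMSO sum of listed transcripts. Each run is the 200 bases before a start in RefSeq's promoter table, read 5′ to 3′ on the strand of the gene, in the GRCm38.p6 build. Such a start need not be the outermost one of the gene. Capitals mark CGGAAG or its reverse complement, the core of the motif of ETS transcription factors.
Unc50 (chr1:37429939-37430138, + strand): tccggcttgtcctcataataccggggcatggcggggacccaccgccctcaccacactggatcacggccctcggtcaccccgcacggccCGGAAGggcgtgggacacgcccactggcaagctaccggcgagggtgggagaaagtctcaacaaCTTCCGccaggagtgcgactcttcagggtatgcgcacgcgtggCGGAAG
Ap3d1 (chr10:80742276-80742475, - strand): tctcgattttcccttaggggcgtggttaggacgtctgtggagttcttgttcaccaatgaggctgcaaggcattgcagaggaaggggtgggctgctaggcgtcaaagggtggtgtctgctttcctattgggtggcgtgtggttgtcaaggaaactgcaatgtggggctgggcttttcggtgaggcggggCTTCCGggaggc
Psap (chr10:60277428-60277627, + strand): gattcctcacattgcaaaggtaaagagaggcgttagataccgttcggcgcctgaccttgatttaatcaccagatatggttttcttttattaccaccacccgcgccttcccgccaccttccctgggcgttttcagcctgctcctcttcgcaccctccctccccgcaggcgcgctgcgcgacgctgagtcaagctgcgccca
Searched on both strands, CGGAAG stood 3 times in the Unc50 window and 1 time in that of Ap3d1, and the Psap window, the first of 2 for that gene, held 0 matches. The last 28 bases of the Ap3d1 window, with its match, lie inside the gene span given here for Ap3d1, downstream of an outer start. This motif was searched for after it was noticed in these sequences. RefSeq gives 12 windows for the 9 genes, of which 5 held it, including a pair of overlapping Slc35c2 windows, whose matches also lie inside the gene span, and that of Sft2d1, and 12.1% of all 32851 mouse windows of the same length did. The E-box CACGTG, the centre of the site of the lysosomal regulator TFEB, was in 0 of the 12 windows of these genes and in 5.26% of all windows. The GC box GGGCGG was in 7 of the 12 windows and in 31.0% of all windows, and its last 3 bases are the first 3 of CGGAAG, so matches can overlap. Other motifs searched were the cAMP response element TGACGTCA (0 of the 12 windows, 1.47% of all), its part TGACG (3 windows, 15.7%), CCAAT (2 windows, 29.3%), TATAAA (0 windows, 9.96%) and the CLEAR element (0 windows, 0.228%), which contains CACGTG. The share of G and C was 44.0% to 72.5% in the 12 windows, mostly above the median of 53.0% over all windows. The motif counts were not adjusted for it. These matches describe letters in a window and not binding.

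Transcripts of these genes went in both directions, often within the same gene. Of the 16 listed transcripts, 6 were higher in every DNR sample than in every DMSO sample, 7 were lower, and in 3 the groups overlapped. In the whole table, 62.6% of transcripts had groups that did not overlap, 27.7% with DNR higher and 34.9% with DNR lower. The table carries the name of a heatmap program and appears to hold transcripts picked for a difference, so nothing is read from these shares. Only 5 of the 16 were above 0 in all 6 samples, while 4 were at 0 in all DMSO samples and 4 in all DNR samples. An FPKM of 0 for a single transcript can be a failed estimate, since transcripts of a gene share reads, so such values are given as listed, with no fold change. Of the 16, 8 carry accessions of curated transcripts and 8 of computationally predicted models. Among those whose groups did not overlap, 5 curated and 1 predicted were higher in DNR, and 2 curated and 5 predicted were lower. This split was not made over the whole table, where 646 of 1037 transcripts are predicted models, so nothing is read from it. The 16 are a small part of the 91 transcripts that RefSeq gives for these genes.

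**Figure D1:**
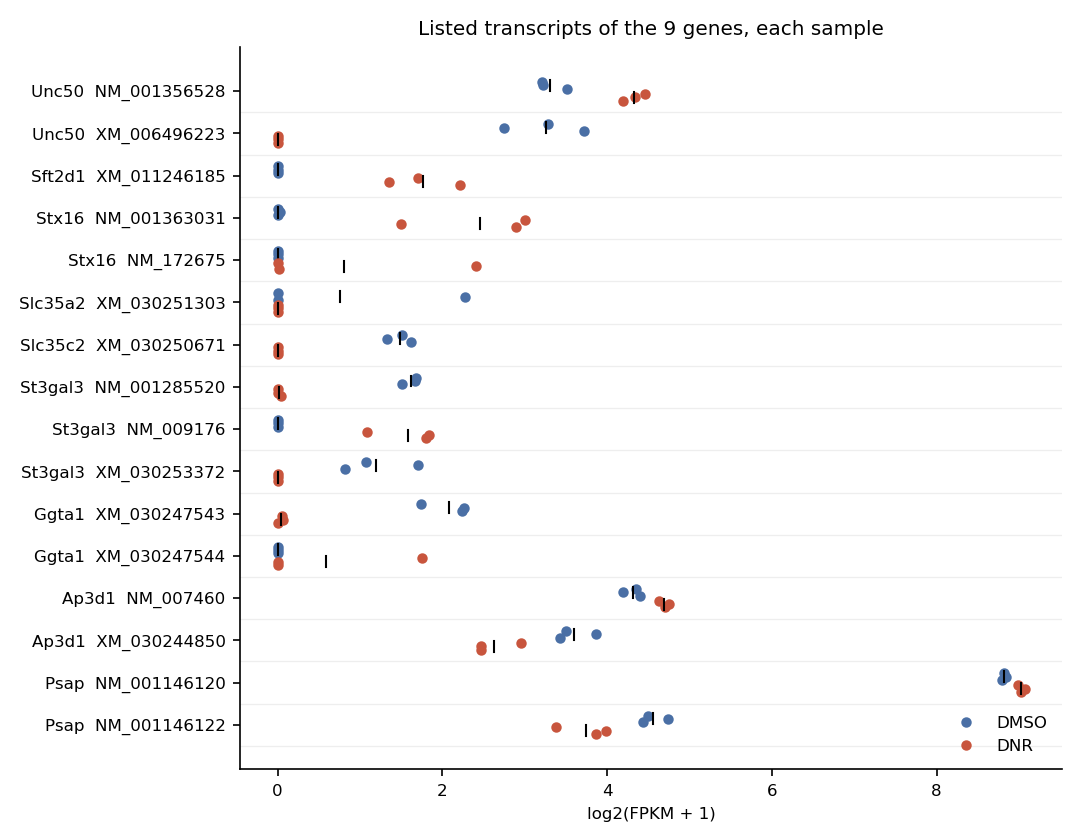
Values of each listed transcript of the 9 genes in log2(FPKM + 1), 1 point per sample, DMSO in blue and DNR in red, with a black bar at each group mean. The more abundant Psap transcript lies far above all others, and for Unc50, St3gal3, Ap3d1 and Psap the colours swap sides between transcripts of the same gene.

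Unc50 encodes a Golgi membrane protein needed for retrograde transport, in part through recruitment of an Arf guanine nucleotide exchange factor. The gene lies on chromosome 1, 37430139 to 37438987. Its curated transcript NM_001356528, which pairs with the GENCODE transcript Unc50-202 of 6 exons and 1094 bases, stood at 8.22, 8.32 and 10.42 FPKM with DMSO, against 20.94, 19.26 and 17.36 in the DNR samples. The lowest DNR sample lay well above the highest DMSO sample, a difference of 1.02 ± 0.12 (SE) on the log2 scale and 2.14 times in mean FPKM. The predicted transcript XM_006496223 was at 8.75, 5.75 and 12.22 FPKM with DMSO, against a listed 0 in every DNR sample. In DMSO the curated transcript made up 46.0% to 59.1% of the sum of both, and in DNR it made up all of it. The sums overlapped between the groups, at 16.97, 14.07 and 22.64 FPKM with DMSO, against 20.94, 19.26 and 17.36 in DNR, and leaving out single samples moved their difference between -0.03 and 0.29 on the log2 scale. The listed transcripts thus differed without overlap one by one and overlapped once added.

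Sft2d1, on chromosome 17 from 8311088 to 8327442, encodes a small membrane protein of the SFT2 family, linked to fusion of endosome-derived vesicles with the Golgi. Its single listed transcript, the predicted XM_011246185, was listed at 0 in all 3 DMSO samples and at 2.27, 1.56 and 3.65 FPKM in DNR. The other 2 of its 3 RefSeq transcripts are not among the listed ones, so the level of the gene as a whole was not analysed here.

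Stx16 encodes syntaxin 16, a SNARE of the trans-Golgi network that receives carriers from endosomes, and lies on chromosome 2, 174076260 to 174099771. Transcript NM_001363031 was at 0, 0.02 and 0 FPKM with DMSO, against 7.0, 1.83 and 6.42 in the DNR samples. Transcript NM_172675 was listed at 0 in all DMSO samples and at 0, 4.33 and 0.01 FPKM in DNR, so its groups overlapped. The DNR sample low in the former transcript, replicate 2, is the sample with signal in the latter. Added together, the DNR samples stood at 7.0, 6.16 and 6.43 FPKM, a much narrower range than either transcript showed, against at most 0.02 in DMSO. Of the 16 transcripts that RefSeq gives for Stx16, 14 are outside the listed set, so this sum does not show whether the gene was silent in DMSO.

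Both listed nucleotide sugar transporters had a predicted transcript seen in DMSO samples alone. Slc35c2, on chromosome 2 from 165276522 to 165287888, encodes a Golgi transporter-like protein linked to the fucosylation of Notch. Its transcript XM_030250671 was at 1.86, 1.51 and 2.08 FPKM with DMSO, against a listed 0 in every DNR sample. Slc35a2, on the X chromosome from 7883921 to 7894492, encodes the transporter that brings UDP-galactose into the Golgi. Its transcript XM_030251303 was listed at 0, 3.83 and 0 FPKM with DMSO, against 0 in DNR. It rests on a single DMSO sample, replicate 2, its groups overlapped, and it did not reach the 1 FPKM in 3 samples that was set for testing, so no difference of Slc35a2 can be read from it.

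St3gal3, on chromosome 4 from 117932152 to 118134972, encodes a sialyltransferase that caps galactose with sialic acid in an alpha 2,3 linkage. Its 3 listed transcripts were divided between the groups. NM_001285520 was at 2.20, 2.17 and 1.84 FPKM with DMSO, against 0, 0 and 0.03 in DNR. The predicted XM_030253372, which missed the filter, was at 1.11, 2.25 and 0.76 FPKM with DMSO, against a listed 0 in DNR. NM_009176 showed the reverse, listed at 0 with DMSO, compared to 1.12, 2.59 and 2.50 FPKM in DNR. NM_009176 thus held 0% of the St3gal3 sum in each DMSO sample and 98.8% to 100% in the DNR samples. Both curated accessions pair with the same GENCODE transcript, St3gal3-201, of 12 exons and 2549 bases, so the annotation used here does not separate them. The sums were 3.31, 4.42 and 2.60 FPKM with DMSO, against 1.12, 2.59 and 2.53 in DNR. These groups met almost exactly, with 2.60 as the lowest DMSO value and 2.59 as the highest in DNR, and the difference of -0.55 ± 0.30 (SE) on the log2 scale was less than 2 times its error. Leaving out single samples moved it between -0.30, without DNR replicate 1, and -0.69.

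Ggta1, on chromosome 2 from 35400179 to 35464381, encodes the alpha 1,3-galactosyltransferase that makes the alpha-Gal epitope of mouse cells. Its predicted transcript XM_030247543 was at 2.34, 3.81 and 3.74 FPKM with DMSO, against 0.04, 0.05 and 0 in DNR. A second predicted transcript, XM_030247544, was listed at 0 everywhere except DNR replicate 1, where it stood at 2.36 FPKM. In that sample the Ggta1 sum was 2.40 FPKM, within the DMSO range of 2.34 to 3.81, while the other DNR samples were at 0.05 and 0. The gene sums of DMSO and DNR therefore overlapped through 1 DNR sample.

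Ap3d1, on chromosome 10 from 80706956 to 80742303, encodes the delta subunit of the adaptor complex AP-3, which sorts membrane proteins from endosomes to lysosomes and related granules. Its curated transcript NM_007460, of 31 exons in GENCODE, was at 19.36, 17.30 and 20.10 FPKM with DMSO, against 23.81, 25.94 and 24.98 in DNR, a difference of 0.38 ± 0.07 (SE) on the log2 scale. The predicted XM_030244850 went the other way, from 10.37, 13.63 and 9.74 FPKM in DMSO to 6.78, 4.54 and 4.54 in DNR, a difference of -0.97 ± 0.21. Neither transcript overlapped between the groups. The share of the curated transcript in the Ap3d1 sum was 62.8% ± 6.06 in DMSO and 82.5% ± 4.06 in DNR (SD, n = 3). The sums, in contrast, were nearly the same in all samples, at 29.73, 30.93 and 29.84 FPKM with DMSO, against 30.59, 30.48 and 29.52 in DNR. Their difference was 0.00 ± 0.02 on the log2 scale as deposited, and became 0.14 after median alignment, in which each sample is moved to the same median.

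Ap3d1 transcripts also offset each other between the 3 samples of each treatment. In DMSO the SD was 1.45 FPKM for the curated transcript and 2.09 for the predicted one, but 0.66 for their sum, where 2.54 would follow if they varied independently. In DNR the SD of the sum was 0.59 FPKM against 1.68. The DMSO sample with the least of the curated transcript, replicate 2, had the most of the predicted one. Over all 6 samples the coefficient of variation of the Ap3d1 sum was 1.86%, and of the 350 gene sums with enough signal 0 had a smaller one, with a median of 19.2%. This spread and rank were noticed after the values were seen, in a table that appears to hold transcripts picked for a difference.

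**Figure D2:**
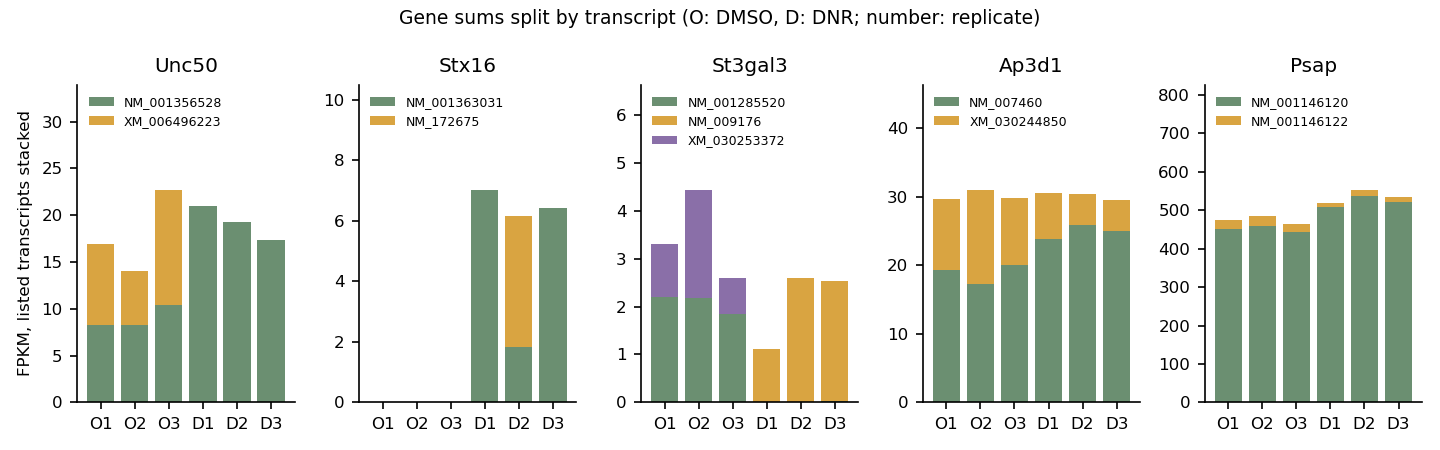
FPKM of the listed transcripts of Unc50, Stx16, St3gal3, Ap3d1 and Psap stacked for each sample, with O for DMSO, D for DNR and the replicate number. The Ap3d1 columns stay between 29.52 and 30.93 FPKM while their colours shift, Unc50 and St3gal3 change colour between treatments, and Psap columns are higher in DNR.

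Psap, on chromosome 10 from 60277628 to 60302600, encodes prosaposin, the precursor of the saposins that present sphingolipids to lysosomal hydrolases. Summed over its listed transcripts, 2 of the 8 that RefSeq gives, it was by far the highest of the 9 genes. It ranked 5 from the top in DMSO among the 847 gene sums, each over listed transcripts only. Transcript NM_001146120 was at 451.90, 459.70 and 443.67 FPKM with DMSO, against 508.11, 536.33 and 521.01 in DNR, 1.16 times higher in the mean (0.21 ± 0.03 on the log2 scale). This difference was 0.39 after median alignment and 0 with quantile normalization, which ties Psap because it holds the same rank in every sample. The lesser transcript NM_001146122 was at 21.66, 25.64 and 20.71 FPKM with DMSO, against 9.44, 14.92 and 13.61 in DNR, a mean 0.56 times that of DMSO (-0.81 ± 0.21). The groups did not overlap in either. Its share of the Psap sum was 4.77% ± 0.45 in DMSO and 2.36% ± 0.47 in DNR (SD, n = 3). Both accessions pair with the same GENCODE transcript, Psap-202 of 14 exons, so the base difference between them was not analysed here.

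The sum of both Psap transcripts was 474.4 ± 10.5 FPKM with DMSO, against 534.5 ± 16.9 in DNR (SD, n = 3), a log2 difference of 0.17 ± 0.03, and the gain of NM_001146120 in FPKM was larger than the loss of NM_001146122. The sum likewise differed by 0.31 after median alignment and by 0 with quantile normalization. Unlike Ap3d1, the pair of Psap transcripts rose and fell together between samples of 1 treatment. The SD of their sum was 10.5 FPKM in DMSO, where 8.43 would follow if they varied independently, and 16.9 against 14.4 in DNR. For Unc50 in DMSO the SD of the sum was likewise the larger, at 4.36 FPKM against 3.47. Psap is abundant in macrophages. Of 18 monocyte and macrophage markers, 1 was among the matched genes, Csf1r, at 63.23, 62.79 and 58.45 FPKM with DMSO, against 69.62, 71.05 and 79.11 in DNR. The dendritic cell marker Itgax, 1 of 11 on its list, summed to 0.96 to 1.23 FPKM with DMSO, against 1.14 to 1.51 in DNR. The 2 of 12 B cell markers in the table, Spib and Ebf1, summed to 0 to 2.27 and 1.88 to 5.97. The part of such cells in the Psap values was not tested.

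**Figure D3:**
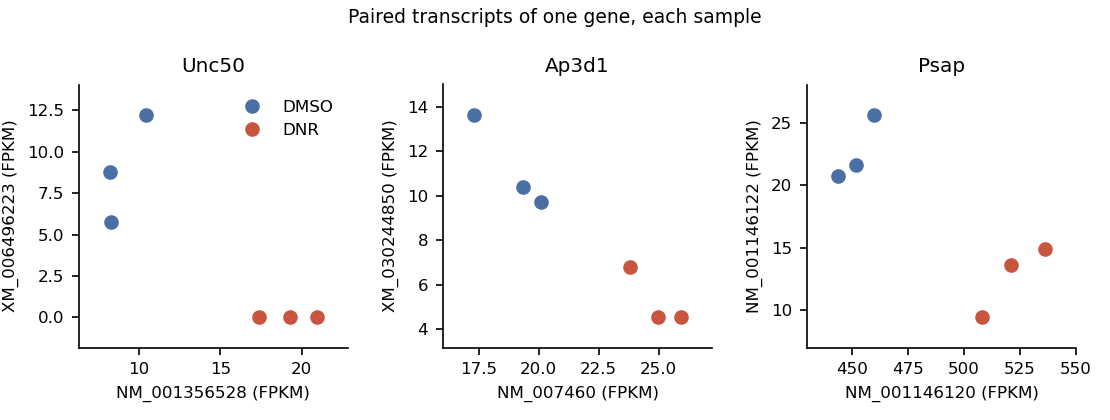
The pair of listed transcripts of Unc50, Ap3d1 and Psap plotted against each other in FPKM, 1 point per sample, DMSO in blue and DNR in red; axes do not start at 0. Ap3d1 samples fall along a descending line within and between treatments, whereas within each treatment the Psap points ascend.

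Ordered by the DMSO sum of their listed transcripts, Psap at 474.4 FPKM was followed by Ap3d1 at 30.2 ± 0.66 and Unc50 at 17.9 ± 4.36 (SD, n = 3). St3gal3 at 3.44 ± 0.92 and Ggta1 at 3.30 ± 0.83 did not differ beyond their spread, and Slc35c2 at 1.82 ± 0.29 came next. The listed Slc35a2, Stx16 and Sft2d1 transcripts were at or near 0 in at least 2 of the 3 DMSO samples. Summed by gene, 3 of the 9 were higher in every DNR sample (Psap, Stx16 and Sft2d1), 2 were lower (Slc35c2 and, by 0.01 FPKM, St3gal3) and 4 overlapped. Over all gene sums of the table, 61.5% did not overlap, and 90.6% of the 350 gene sums with enough signal passed the limma test at an adjusted p of 0.05. For 4 of the 6 genes with more than 1 listed transcript (Unc50, St3gal3, Ap3d1 and Psap), transcripts moved apart in opposite directions without overlap. The same held for 38 of the 137 such genes in the table, or 27.7%. Where the opposed transcripts were curated on 1 side and predicted on the other, as in Unc50 and Ap3d1, the curated side was the higher in DNR in 8 genes of the table and the predicted side in 6.

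Other genes of these pathways, taken from 4 lists that exclude the 9, were few in the table: 39 of 604 genes, with 20 transcripts of 20 genes tested. All 20 passed the test, 7 higher and 13 lower in DNR (limma, adjusted p under 0.05 over all 388 tested transcripts). As 99.7% of tested transcripts passed, 43.0% higher and 56.7% lower, this is near the share of the table. The median difference was -0.18 on the log2 scale, against -0.22 for all tested transcripts. The samples were then brought to the same median, a relative shift of 0.18 in favour of DNR. Of the 20, 9 passed after it, 7 higher and 2 lower. As more of the tested transcripts fell than rose, a common median takes falls away by construction, so nothing is read from their smaller number. The table appears to hold transcripts picked for a difference between these groups. Adjusted p-values of single transcripts in the lists are therefore given as descriptions, and nothing is read from them.

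In the list for Golgi vesicle and retrograde traffic, 1 of 5 tested transcripts rose and 4 fell, with a median difference of -0.34. Vps54, a subunit of the GARP complex that tethers endosome-derived carriers, rose from 2.30, 2.58 and 1.87 to 5.04, 5.82 and 3.24 FPKM (log2 difference 0.79 ± 0.20; limma, adjusted p = 0.0069). Gosr1, a Golgi SNARE, fell from 2.86, 1.77 and 2.42 to 0.93, 0.99 and 0.89 FPKM (-0.78 ± 0.14; limma, adjusted p = 0.0032). The Gosr1 transcript reached the 1 FPKM in 3 samples set for testing only through DMSO, so nothing is read from its p-value. Ap1g1, of the adaptor AP-1, fell from 26.0 ± 0.78 to 22.1 ± 1.16 FPKM and Gga3, a clathrin adaptor of the trans-Golgi network, from 15.2 ± 0.82 to 11.6 ± 1.17 (SD, n = 3). Neither passed after median alignment (limma, adjusted p = 0.61 and 0.10), and Gga3 also missed it after quantile normalization (limma, adjusted p = 0.076).

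In the glycosylation list, 2 of 6 tested transcripts rose and 4 fell, with a median difference of -0.14. A transcript of Fpgt, which makes GDP-fucose from salvaged fucose, rose from 0.37 ± 0.15 to 1.56 ± 0.18 FPKM (log2 difference 0.91 ± 0.12; limma, adjusted p = 0.00093). This transcript reached the 1 FPKM in 3 samples set for testing only through DNR, so nothing is read from its p-value. St3gal4, a sialyltransferase related to St3gal3, rose from 7.32, 6.22 and 5.98 to 9.23, 9.67 and 9.41 FPKM (0.48 ± 0.10; limma, adjusted p = 0.0043). Papss1, which makes the sulfate donor used on glycans, fell from 7.54 ± 1.12 to 2.91 ± 1.41 FPKM (SD, n = 3). Mgat1, which starts hybrid and complex N-glycans, fell from 7.95 ± 0.34 to 5.76 ± 0.37 FPKM but missed the threshold after median alignment (limma, adjusted p = 0.081).

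In the list for endosome and lysosome traffic, 3 of 6 tested transcripts rose and 3 fell, with a median of 0.10. The sorting nexin transcripts went both ways: Snx5 rose from 104.8 ± 12.1 to 132.5 ± 5.91 FPKM and Snx13 from 0.43 ± 0.20 to 1.30 ± 0.091, while Snx9 fell from 40.0 ± 0.85 to 34.2 ± 0.96 (SD, n = 3). The Snx13 transcript reached the 1 FPKM in 3 samples set for testing only through DNR, so nothing is read from its passing. Ap2a2, of the endocytic adaptor AP-2, rose from 4.33 ± 0.44 to 6.54 ± 0.73 FPKM. The fall of Snx9 missed the threshold after median alignment (limma, adjusted p = 0.48). In the list of lysosomal hydrolases and membrane proteins, 1 of 3 tested transcripts rose and 2 fell. Abca2, a lysosomal lipid transporter, rose from 2.72 ± 0.14 to 4.43 ± 1.01 FPKM. Litaf, an endosomal membrane protein, fell from 97.6 ± 2.8 to 86.0 ± 1.80 FPKM and Lmbrd1, which exports cobalamin from lysosomes, from 19.2 ± 0.96 to 15.1 ± 1.24 (SD, n = 3). Neither fall passed after median alignment (limma, adjusted p = 0.94 and 0.13), where Litaf differed by 0.0049 in the opposite direction, and Lmbrd1 also did not pass with quantile normalization (limma, adjusted p = 0.17).

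**Figure D4:**
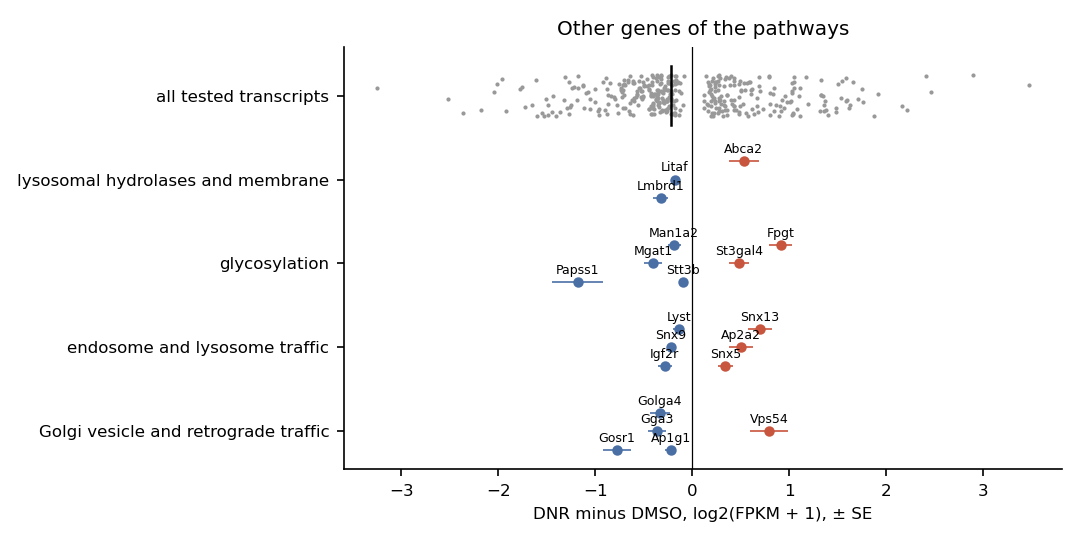
Difference between DNR and DMSO on the log2(FPKM + 1) scale for the 20 tested transcripts of the 4 pathway lists, each named by its gene, with SE from the limma fit, and for all 388 tested transcripts in grey with their median as a bar. Rises (red) and falls (blue) occur in each list, within the range of all tested transcripts.

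The most abundant listed transcript of each of the 9 genes was compared with the tested transcripts of named genes outside the 9. The nearest profile over the 6 samples had the smallest root mean square difference of log2(FPKM + 1) after removal of each mean. The nearest to Psap was Pmaip1, the gene of the pro-apoptotic protein Noxa (difference 0.018), and the nearest to Ap3d1 was Ppp2r5d, a regulatory subunit of protein phosphatase 2A (0.041). St3gal3 was nearest to Cacna1i (0.068), Slc35c2 to Dync1li2 (0.074), Ggta1 to Abcb6 (0.12) and Unc50 to an Itgax transcript (0.13). Sft2d1, Stx16 and Slc35a2 had their nearest at 0.14 (Gm21188), 0.32 (Fgd2) and 0.47 (Rnf13). These distances are descriptions over 6 samples of a table in which nearly all tested transcripts differ between the groups. Each match is to a single transcript, and Cacna1i, Abcb6, Itgax and Fgd2 each had another listed transcript that went the other way. For St3gal3, both curated transcripts had nearly the same mean, and that not used went the other way. Unc50, Ap3d1 and Psap also each had a listed transcript, not used for the match, that went the other way.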

How the data were processed

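RNA of 3 DMSO and 3 DNR samples was sequenced from libraries made with a SMARTER kit, per the labels' protocols. The authors deposited log2(FPKM + 1) values for 1037 RefSeq transcripts. The column names say FPKM, and the log2 scale was read from the values, since 2 raised to each value minus 1 was a whole number of hundredths in 100% of cells within 1e-06 FPKM. The submitters' processing notes name the builds GRCm38 and mm10. How reads were aligned and quantified, and how transcripts entered the table, is not given in the sources used here. Column codes were matched to the sample descriptions, all 6 of them: O codes end like the DMSO descriptions, which leaves the D codes for the DNR samples.

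Accessions were matched without version to RefSeq genes of GRCm38.p6 (1013 of 1037 transcripts). Identical entries of an accession were summed once. Transcripts or gene sums that reached 1 FPKM in at least 3 samples were fitted with limma 3.58.1 in R 4.3.3 (treatment only, mean-variance trend, two-sided, Benjamini-Hochberg adjustment over all tested, threshold 0.05), after the fit was tested on simulated data. Member transcripts were described without a test, with SE from the spread of each group. Linear FPKM had been assumed when the tests were planned, which gives the same scale once 1 is added before the log2. Members and lists were chosen with earlier results of these data known. In each pathway list up to 4 tested transcripts with the smallest adjusted p were named. Promoter sequences come from RefSeq, GRCm38.p6, with all 9 genes matched.

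Replicate numbers are shared by the groups, but the labels do not say that they pair samples. The alternatives tried were a pseudocount of 0.1, no filter or a stricter one, no trend, a common median, quantile normalization, a replicate block and each sample left out.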

Additional observations from a re-analysis of the deposited data

How the results depend on the processing

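Of the 12 listed transcripts of the 9 genes that passed the filter, 12 had groups that did not overlap with a pseudocount of 0.1, with a common median and with each sample left out, and 11 with quantile normalization, where NM_001146120 of Psap differed by 0. Several of the 12 passed the filter only through the group where they were high, at or near 0 in the other. Nearly all tested transcripts of the table also had groups that did not overlap, so nothing is read from these counts. No difference described for the transcripts or gene sums of the 9 genes changed sign where the groups did not overlap. The number of transcripts past the threshold, 387, was 252 among those above 0 in all samples with a mean of at least 5 FPKM, which leaves fewer to test. That of the pathway lists, 20, was 9 with samples shifted to a common median, where Litaf differed by 0.0049, opposite to its fall. This alignment moves DNR up by 0.18 against DMSO by construction, so nothing is read from the lower count or from Litaf. With each sample left out and the tested set held fixed, these counts were 376 to 383 and 18 to 19; the set was fixed after lower counts had been seen with the filter applied again to the remaining samples, which drops transcripts listed in a single group. The common median left 167 higher among 273 called transcripts, against 167 of 387 as deposited.

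With a replicate block, 385 transcripts, 314 gene sums (317 without it) and 19 pathway transcripts passed. Deviations of same-numbered samples correlated at -0.055, 0.046 and 0.043, so the numbers were not treated as pairs. Without read counts, values near 0 FPKM cannot be told from undetected transcripts.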

Other observations

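Below the filter, 24 further listed transcripts of the pathway lists were not tested. Several genes resembled those above in having transcripts above 0 in only 1 of the groups. This pattern was common: 235 of the 1037 transcripts in the table were at 0 throughout 1 group and above 0 throughout the other. Among the 16 listed transcripts of the chosen genes, 5 were of this kind, so nothing is read from the resemblance. St3gal4, whose main transcript rose, had a second, predicted transcript at 0.70, 1.29 and 0.71 FPKM with DMSO, against 0 in every DNR sample. Golgb1, the gene of the Golgi tether giantin, had NM_030035 at 0.05, 1.89 and 0.19 FPKM with DMSO, against 0 in DNR, with 1 predicted transcript at 0.94 FPKM in DMSO replicate 1 alone and another at 1.80 FPKM in DNR replicate 3 alone. Vps11, a core subunit of the complexes that tether endosomes and lysosomes, was listed at 0 with DMSO, compared to 0.71, 2.76 and 0.92 FPKM in DNR. These were chosen after their values were seen.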
